A study of Mus musculus with 16 samples.

Results

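The colony-stimulating factors and their receptors were followed through bulk RNA sequencing of HM1 tumours, a transplantable mouse ovarian cancer model. The family was taken as 9 genes by symbol: the ligands Csf1, Il34, Csf2 and Csf3 and the receptor genes Csf1r, Csf2ra, Csf2rb, Csf2rb2 and Csf3r. All 9 were found in each of the 16 libraries, among 55290 symbols in the tables of sorted cells and 53112 in those of whole tumours. Cytotoxic T cells sorted from tumours (CD8 tumour-infiltrating lymphocytes, CD8 TILs) gave 3 libraries with mannose supplementation and 3 control libraries. Whole tumour tissue gave 5 libraries with mannose supplementation and 5 control libraries. Mannose is a simple sugar, and the series title places it beside anti-PD-1 therapy. The labels give no mouse strain, age, dose, route or duration, and do not say whether any of these animals received an anti-PD-1 antibody. They also do not tie libraries to animals, so every p-value measures only the spread between these libraries, which may in part be technical.

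CSF-1 (M-CSF) and interleukin-34 are separate ligands of a single receptor tyrosine kinase, CSF1R, on which most tissue macrophages depend for survival. GM-CSF, the product of Csf2, is made by activated T cells, epithelial cells and stromal cells, and acts on myeloid cells through a specific alpha chain (Csf2ra) and the common beta chain (Csf2rb). Mice carry a second beta chain gene, Csf2rb2, whose product serves the interleukin-3 receptor. G-CSF, encoded by Csf3, drives neutrophil production through the receptor encoded by Csf3r. In a tumour the receptors are known as genes of macrophages, monocytes and neutrophils rather than of T cells.

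Expression was read as TPM (transcript abundance as a share of the library), which is scaled for transcript length, so that levels of different genes can be set side by side. Read depth is unknown, since TPM values carry no library totals. Between 13538 and 14384 symbols reached 1 TPM in a CD8 library, and between 12345 and 13820 in a tumour. The value columns of all 3 control CD8 tables are headed as mannose samples, and the sample labels were followed here. Use of T cell receptor beta V segments, which reflects the clones in a sample, correlated at 0.995 between mannose CD8 replicates 1 and 2 and at 0.999 between control CD8 replicates 1 and 2. Every other pair of CD8 libraries lay at 0.763 or below over the same 35 segments. These like pairs may not be separate samples, and results were therefore also computed with each pair averaged.

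The CD8 libraries carried their defining transcripts, with Cd8a at 285 to 564 TPM in mannose libraries and 570 to 591 TPM in control libraries. They also carried RNA of other cell types, in amounts that differed between the groups. Macrophage and monocyte markers, summed over 14 genes, came to 1257 to 1588 TPM in mannose CD8 libraries and 4458 to 4745 TPM in control CD8 libraries. Neutrophil markers (12 genes) summed to 358 to 549 TPM with mannose and 1379 to 1682 TPM in controls. Carcinoma epithelial markers (11 genes) lay the other way, at 1743 to 2670 TPM with mannose and 259 to 574 TPM in controls, as did fibroblast markers (8 genes), at 248 to 390 TPM with mannose and 46.9 to 139 TPM in controls. T cell markers (12 genes) summed to 3245 to 6194 TPM with mannose and 6207 to 6781 TPM in controls. Among the macrophage, epithelial, fibroblast and T cell markers, none was at 0 throughout a CD8 group, whereas the neutrophil marker Camp was at 0 in all 3 mannose libraries. The part of this other RNA in the results on the CD8 libraries was not tested, and fewer cells of a type cannot be told apart from less RNA per cell.

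In the CD8 libraries all 5 receptor genes were lower with mannose than in controls, by 3.15-fold to 5.13-fold in mean TPM, while the ligands Il34 and Csf2 were higher, by 4.57-fold and 2.18-fold. Csf1 and Csf3 did not pass the test. By limma's moderated test on log2(TPM + 1), with Benjamini-Hochberg adjustment over 14280 genes and a threshold of 0.05, 5 of 9 members were thus lower and 2 of 9 higher. Of all genes tested, 34.9% were called, 11.7% as lower and 23.2% as higher, so the share of members called higher was near that of all genes. In whole tumours no member passed the same test.

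**Figure D1:**
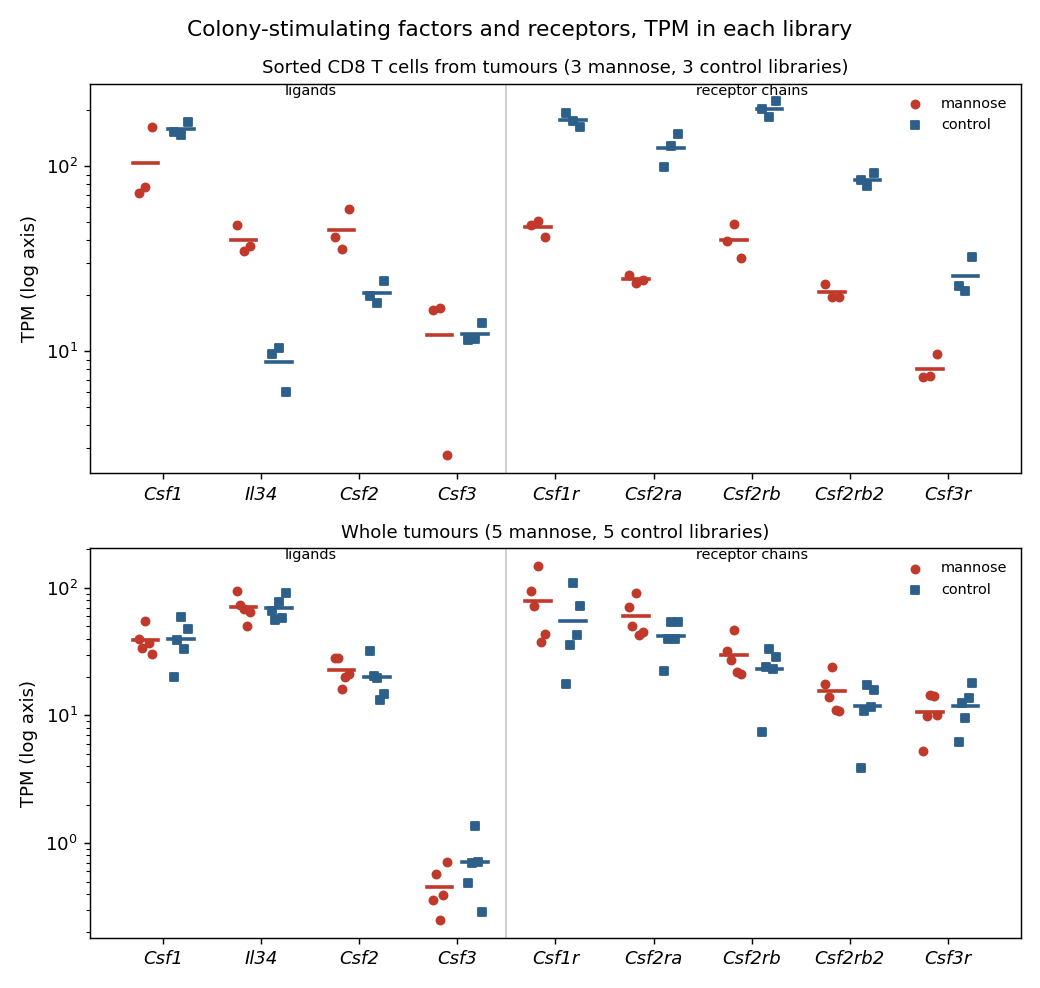
TPM of the 9 members in each library on a log axis, with CD8 TILs above and whole tumours below; circles are mannose libraries, squares are control libraries, and short lines are group means. In CD8 TILs the mannose points of all 5 receptor genes lie below every control point and those of Il34 and Csf2 above, and in whole tumours the groups overlap for every gene.

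Of the ligands of CSF1R, Il34 had 47.9, 34.6 and 36.9 TPM in mannose CD8 libraries, against 9.61, 10.4 and 6.04 TPM in control CD8 libraries. Every mannose value lay above every control value, as was so for 33.3% of all genes tested. The difference was 2.09 ± 0.216 on the log2(TPM + 1) scale (SE, n = 3 each; adjusted p = 0.00142, limma), and it passed with the like pairs averaged (2.17, adjusted p = 0.0229, limma), where 7.81% of genes were called higher. Il34 is known as a product of keratinocytes and neurons rather than of T cells. Whole tumours had 50.1 to 94.5 TPM with mannose and 55.5 to 90.2 TPM in controls, and levels of the 2 tissues were not tested against each other. Which cells the Il34 transcripts of the CD8 libraries came from was not tested. Relative to the mean level of the epithelial markers, Il34 stood at 1.16 ± 0.247 log2 units in mannose CD8 libraries and 0.0576 ± 0.140 in control CD8 libraries (SD, n = 3 each; exact permutation p = 0.1, two-sided; adjusted p = 0.154). It stood at 1.61 ± 0.276 in mannose tumours and 1.53 ± 0.149 in control tumours (SD, n = 5 each). This marker level averages all 11 genes, of which 6 were tested in the CD8 libraries. The level was 0.986 higher with mannose there, whereas the 6 tested had a median difference of 2.40, against 2.09 for Il34.

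Csf1, the principal macrophage growth factor, had 71.6, 77.3 and 162 TPM in mannose CD8 libraries, against 153, 146 and 174 TPM in control CD8 libraries. The pair of mannose libraries that share their V segment use was low and the third lay within the control range. The difference of -0.70 ± 0.297 (SE, n = 3 each; 95% interval -1.40 to 0.005) did not pass (adjusted p = 0.110, limma). A single library decides this: without mannose replicate 3 the difference was -1.07, with an adjusted p of 0.00172 (limma). Relative to the T cell markers, the groups overlapped in Csf1, at -1.49 ± 0.234 log2 units in mannose libraries and -1.44 ± 0.103 in controls (SD, n = 3 each; exact permutation p = 1, two-sided, and the smallest p that 3 against 3 allows is 0.1).

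The balance of the CSF1R ligands was read as the ratio of Il34 to Csf1. It was 0.448 ± 0.221 in mannose CD8 libraries and 0.0562 ± 0.0191 in control CD8 libraries (SD, n = 3 each), a difference of 2.92 on the log2 scale with no overlap between groups (exact permutation p = 0.1, two-sided; adjusted p = 0.154 over the 43 ratios and marker-relative levels compared in these libraries). In whole tumours Il34 exceeded Csf1 in all 10 libraries, and the ratio was 1.86 ± 0.520 with mannose and 1.93 ± 0.782 in controls (SD, n = 5 each; exact permutation p = 0.952, two-sided).

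**Figure D2:**
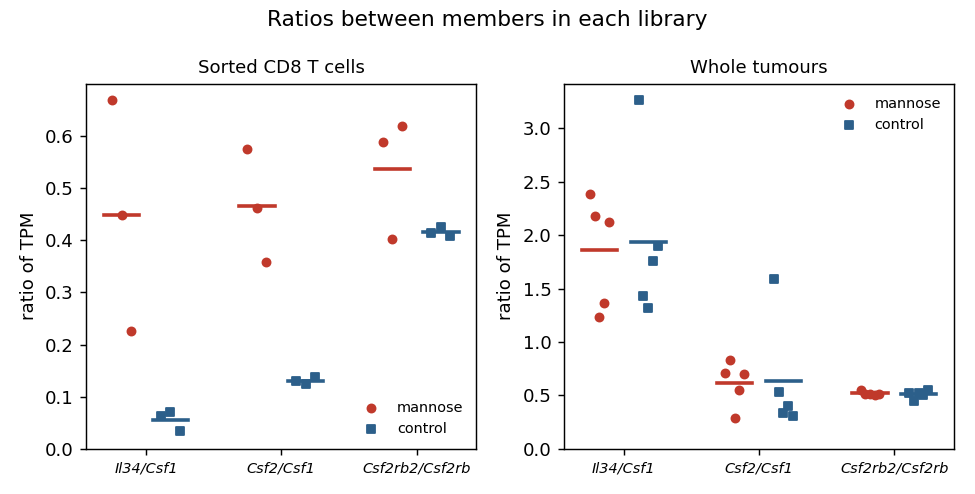
Ratio of TPM between pairs of members in each library, with CD8 TILs on the left and whole tumours on the right; circles are mannose libraries, squares are control libraries, and short lines are group means, on linear axes of different range. In CD8 TILs Il34/Csf1 and Csf2/Csf1 are higher in all 3 mannose libraries than in any control, and for Csf2rb2/Csf2rb mannose replicate 2, at 0.403, lies below all controls and the other mannose libraries above them.

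Csf2, encoding GM-CSF, had 41.2, 35.7 and 58.3 TPM in mannose CD8 libraries, against 19.9, 18.3 and 23.8 TPM in control CD8 libraries. Every mannose value lay above every control value, as for 33.3% of all genes tested. The difference was 1.07 ± 0.194 (SE, n = 3 each; adjusted p = 0.00691, limma), and with the like pairs averaged it was 1.11 and missed the threshold (adjusted p = 0.0506, limma). It was larger relative to the T cell markers, where Csf2 stood at -2.60 ± 0.309 log2 units with mannose and -4.32 ± 0.159 in controls (SD, n = 3 each; exact permutation p = 0.1, two-sided; adjusted p = 0.154). Relative to the mean level of all 11 epithelial markers the groups overlapped, at 1.32 ± 0.495 with mannose and 1.24 ± 0.422 in controls (SD, n = 3 each; exact permutation p = 0.7, two-sided). That level was 0.986 higher with mannose, whereas the 6 epithelial markers tested had a median difference of 2.40. Csf2, at 1.07, thus rose about as far as the averaged level and less than the tested markers. In whole tumours Csf2 had 16.1 to 28.2 TPM with mannose and 13.2 to 31.8 TPM in controls. T cell markers there summed to 27.6 to 139 TPM with mannose and 13.7 to 69.2 TPM in controls. Levels of the 2 tissues were not tested against each other. Whether the Csf2 transcripts of the CD8 libraries came from T cells was not tested.

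Csf3, encoding G-CSF, had 16.7, 17.1 and 2.74 TPM in mannose CD8 libraries, against 11.5, 11.7 and 14.2 TPM in control CD8 libraries. The mannose pair lay above all controls and the third mannose library below them, and the difference of -0.33 ± 0.587 did not pass (SE, n = 3 each; adjusted p = 0.691, limma). Without mannose replicate 3 its sign turned, to 0.42 with an adjusted p of 0.0484 (limma). In whole tumours Csf3 was low, at 0.25 to 0.71 TPM with mannose and 0.29 to 1.37 TPM in controls.

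Among the receptors, Csf1r had 48.0, 50.5 and 41.6 TPM in mannose CD8 libraries, against 194, 176 and 164 TPM in control CD8 libraries. The groups were far apart, with control values 3.81-fold higher in the mean. The difference was -1.91 ± 0.105 (SE, n = 3 each; adjusted p = 2.28e-04, limma). Every mannose library lay below every control for all 5 receptor genes, as was so for 18.1% of all genes tested.

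Csf2ra, the chain that gives the GM-CSF receptor its ligand specificity, had 25.9, 23.3 and 24.2 TPM in mannose CD8 libraries, against 98.9, 128 and 150 TPM in control CD8 libraries. The mannose values were close together and the controls spread widely above them. The difference was -2.29 ± 0.153 (SE, n = 3 each; adjusted p = 2.85e-04, limma). Csf2rb, the signalling chain shared by the receptors of GM-CSF, interleukin-3 and interleukin-5, had 39.3, 48.7 and 31.8 TPM with mannose, against 203, 184 and 224 TPM in controls. It was the most abundant member in control CD8 libraries and had a difference of -2.34 ± 0.160 (SE, n = 3 each; adjusted p = 3.05e-04, limma).

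Csf2rb2 had 23.1, 19.6 and 19.7 TPM in mannose CD8 libraries, against 84.1, 78.2 and 91.4 TPM in control CD8 libraries, again without overlap. The difference was -1.97 ± 0.105 (SE, n = 3 each; adjusted p = 2.03e-04, limma). Its 2637 coding bases and the 2691 of Csf2rb are near copies on chromosome 15, with 2505 of 2631 aligned bases identical (95.2%, GENCODE M21 transcripts of build GRCm38). The start of the coding sequence (bases 1 to 90) is shown as the first stretch of that length without gaps that has the median number of differences, 3 bases, in capitals:
Csf2rb: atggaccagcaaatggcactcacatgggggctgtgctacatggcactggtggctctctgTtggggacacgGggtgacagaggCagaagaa
Csf2rb2: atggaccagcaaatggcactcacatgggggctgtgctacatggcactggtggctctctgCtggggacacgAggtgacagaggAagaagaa
Of the windows of 100 bases in the Csf2rb coding sequence, 11.0% occur unchanged in Csf2rb2, and of those of 150 bases 6.49%. The authors' counting could therefore split reads between them, and each level on its own is uncertain. Summed, the pair differed by -2.23 ± 0.124 in the CD8 libraries (SE, n = 3 each; adjusted p = 2.29e-04, limma). The ratio of Csf2rb2 to Csf2rb was 0.537 ± 0.117 with mannose and 0.416 ± 0.00887 in controls (SD, n = 3 each; exact permutation p = 0.4, two-sided), and 0.520 ± 0.0189 in mannose tumours and 0.510 ± 0.0389 in control tumours (SD, n = 5 each).

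Csf3r, the G-CSF receptor of the neutrophil lineage, had 7.25, 7.31 and 9.60 TPM in mannose CD8 libraries, against 22.5, 21.3 and 32.3 TPM in control CD8 libraries. The difference was -1.53 ± 0.191 (SE, n = 3 each; adjusted p = 0.00239, limma). With the like pairs averaged all 5 receptor genes passed, with differences of -1.56 (Csf3r) to -2.45 (Csf2rb) and adjusted p of 0.0101 to 0.0352 (limma), where 3.87% of genes were called lower.

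The receptors fell about as far as the macrophage and monocyte markers. Of the 14 macrophage and monocyte markers 13 were lower with mannose, with a median difference of -1.86, and of 9 neutrophil markers tested 7 were lower, against a median of 0.09 over all genes. Set against the mean level of the macrophage and monocyte markers, Csf1r stood at -0.0117 ± 0.298 log2 units in mannose CD8 libraries and 0.129 ± 0.110 in controls (SD, n = 3 each; exact permutation p = 0.5, two-sided). Csf2rb2 and Csf3r differed by -0.21 and 0.24 on this relative scale, and Csf2ra and Csf2rb by -0.53 and -0.57. Csf2ra alone of the 5 had groups that did not overlap, at -0.915 ± 0.137 with mannose and -0.387 ± 0.317 in controls (SD, n = 3 each; exact permutation p = 0.1, two-sided; adjusted p = 0.154 over 43). Set against the T cell markers, the groups did not overlap for any of the 5 receptors, with mannose lower by 0.88 to 1.68 log2 units (exact permutation p = 0.1 for each, two-sided; adjusted p = 0.154 over 43). Set against the neutrophil level, Csf1r, Csf2rb2, Csf2ra and Csf2rb differed by -0.79, -0.85, -1.17 and -1.22, without overlap (same p-values by the same test). Csf3r differed by -0.41, with overlap (exact permutation p = 0.2, two-sided). That level differed by -1.12 over all 12 neutrophil markers, whereas the 9 tested had a median of -1.56. On the macrophage scale Il34 was 3.86, Csf2 2.83 and Csf1 1.07 log2 units higher with mannose than in controls, each without overlap (exact permutation p = 0.1, two-sided; adjusted p = 0.154 over 43). Csf3 was 1.43 higher, with overlap (exact permutation p = 0.4, two-sided). The macrophage and monocyte level itself was 1.77 lower with mannose, so a gene that did not change would also stand higher on this scale. The share of all genes without overlap was not computed on any of these relative scales.

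**Figure D3:**
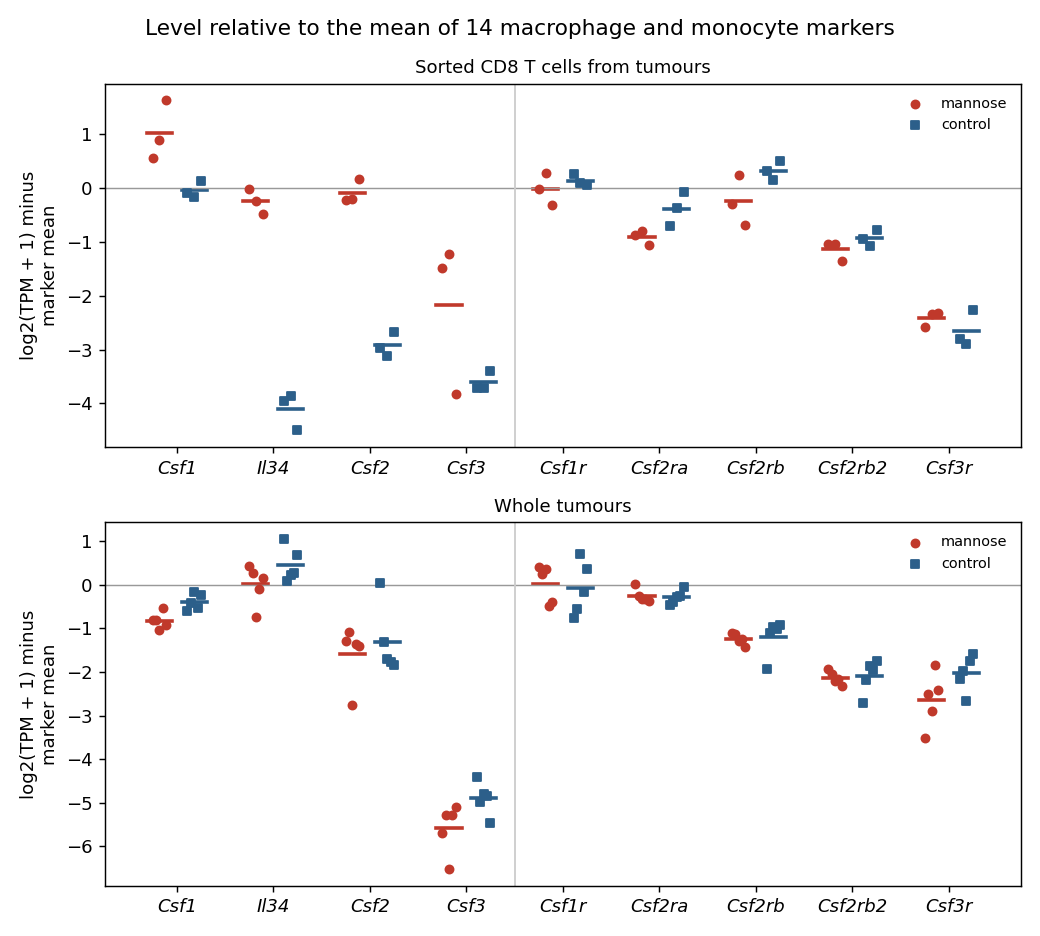
Level of each member, log2(TPM + 1), minus the mean level of 14 macrophage and monocyte markers in the same library, with CD8 TILs above and whole tumours below; circles are mannose libraries, squares are control libraries, and short lines are group means. In CD8 TILs the groups lie close together for Csf1r (means of -0.0117 with mannose and 0.129 in controls) and apart for Csf2ra (-0.915 with mannose and -0.387 in controls), while Il34 and Csf2 are higher with mannose.

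PU.1, encoded by Spi1, is the myeloid transcription factor known to act on the promoters of several of these receptor genes. Spi1 itself was at 21.0 ± 8.51 TPM in mannose CD8 libraries and 101 ± 7.24 TPM in control CD8 libraries (SD, n = 3 each), a difference of -2.28 ± 0.262 (SE; adjusted p = 0.00192, limma). Promoters of 5 members were at hand from RefSeq (build GRCm38.p6, which is not the GRCm39 of the deposited tables): Csf1, Csf2, Csf2ra, Csf2rb2 and Csf3r. The core PU.1 motif GAGGAA was searched on both strands in the 250 bases before each transcription start. It occurred in 7639 of 32851 mouse promoters of that length (23.25%). All 3 receptor promoters at hand held it, and those of the ligands Csf1 and Csf2 did not. The receptor promoters are shown 5′ to 3′ on the strand of the gene with the match in capitals. It lies at bases -14 to -9 and -8 to -3 in Csf2ra (chr19:61228419-61228668, minus strand), at -86 to -81 in Csf3r (chr4:126024409-126024658, plus strand), and at -167 to -162 on the opposite strand in Csf2rb2 (chr15:78305722-78305971, minus strand):
Csf2ra: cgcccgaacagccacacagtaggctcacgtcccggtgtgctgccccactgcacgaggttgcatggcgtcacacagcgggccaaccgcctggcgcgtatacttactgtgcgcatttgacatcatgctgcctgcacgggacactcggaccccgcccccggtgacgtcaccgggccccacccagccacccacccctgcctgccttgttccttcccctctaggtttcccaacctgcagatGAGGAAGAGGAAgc
Csf3r: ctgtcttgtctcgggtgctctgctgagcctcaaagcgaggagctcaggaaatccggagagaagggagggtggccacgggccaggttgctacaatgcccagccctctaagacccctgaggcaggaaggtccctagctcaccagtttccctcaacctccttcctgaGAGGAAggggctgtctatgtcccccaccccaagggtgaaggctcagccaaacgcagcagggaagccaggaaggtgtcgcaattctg
Csf2rb2: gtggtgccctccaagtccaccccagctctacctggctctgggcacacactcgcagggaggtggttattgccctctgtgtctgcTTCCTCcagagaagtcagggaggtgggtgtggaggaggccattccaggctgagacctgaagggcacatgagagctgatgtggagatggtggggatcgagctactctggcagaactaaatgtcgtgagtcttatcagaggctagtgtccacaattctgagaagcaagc
A match is a description of the letters in this window and not evidence that the factor binds there.

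Other genes of the pathway were described by lists, some of which share genes (Cish among them). Related cytokines and receptors, 7 of 10 of them tested, gave 2 higher, 1 lower and 4 not passed, close to the shares of all genes tested (23.2% higher and 11.7% lower). Kitl, the ligand of the related kinase KIT, had 39.3 ± 11.1 TPM with mannose and 7.13 ± 3.41 TPM in controls (SD, n = 3 each), a difference of 2.38 (adjusted p = 0.00485, limma). Ptprz1, a phosphatase that also binds interleukin-34, was at 3.32 TPM with mannose and 0.670 TPM in controls, 1.37 higher (adjusted p = 0.00289, limma). Flt3, a receptor of dendritic cell precursors, was 0.70 lower (adjusted p = 0.0180, limma), a call lost when scaled to the T cell markers (-0.31, adjusted p = 0.333, limma). Il3, the T cell cytokine that shares the beta chain, was listed at 0 in all 16 libraries.

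Receptor-proximal signalling genes (22, all tested) gave 1 higher, 13 lower and 8 not passed, with a median difference of -0.62, where 11.7% of all genes were lower and 23.2% higher. The kinase Syk had 11.9 ± 1.10 TPM with mannose and 66.5 ± 5.16 TPM in controls (SD, n = 3 each), 2.39 lower (adjusted p = 2.03e-04, limma). The Src-family kinase Fgr was 1.72 lower, and Tyrobp, the adaptor of many myeloid receptors, was at 95.3 ± 8.57 TPM with mannose and 456 ± 15.4 TPM in controls (SD, n = 3 each; adjusted p = 1.34e-04, limma). These 3 named genes, of the 13 lower, are typical of myeloid cells, and the gene that rose was Ywhaz, a 14-3-3 adaptor (0.34, adjusted p = 0.00886, limma). For comparison with the list median, the 12 T cell markers had a median difference of -0.60. Jak1 and Jak2, kinases that most cell types express and that these cytokine receptors use, did not pass, with differences of -0.37 and -0.11. With the libraries scaled to their T cell markers, 2 of the 22 were higher and 7 lower, with a median of 0.013, and the 3 lower genes named here still passed. Under that scaling 5592 of all genes were called higher and 380 lower, with a median of 0.68.

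STAT factors and inhibitors of the SOCS type (10, all tested) gave 7 lower and 3 not passed, with a median of -0.68, where 11.7% of all genes were lower. Pim1, a kinase gene induced by STAT5, had 143 ± 25.4 TPM with mannose and 346 ± 35.1 TPM in controls (SD, n = 3 each; adjusted p = 0.00165, limma). The feedback inhibitors Cish, Socs2 and Socs3 were 1.12, 1.02 and 0.88 lower (adjusted p of 0.0330, 0.00661 and 0.00670 in that order, limma). T cells also express these genes. Scaled to the T cell markers, 1 of the 10 was lower, Pim1 (-0.63, adjusted p = 0.0452, limma), and the median was -0.086. All genes together then had 380 lower and 5592 higher calls, with a median of 0.68.

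Myeloid transcription factors (13, all tested) gave 1 higher, 8 lower and 4 not passed, with a median of -1.09, against 23.2% higher and 11.7% lower among all genes. Besides Spi1, Cebpe, of the granulocyte lineage, was 1.88 lower, and Tfec, of macrophages, 1.58 lower. Scaled to the T cell markers 5 of the 13 were lower and 1 higher, these 3 among the lower. Of all genes, 380 were lower and 5592 higher on that scale. Klf4, which epithelial cells also use, was the exception: it had 109 ± 6.41 TPM with mannose and 45.9 ± 5.78 TPM in controls (SD, n = 3 each), 1.23 higher (adjusted p = 9.05e-04, limma).

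Genes known to be induced in myeloid cells through GM-CSF (12, all tested) gave 11 lower and 1 higher, with a median of -2.05, against 11.7% lower and 23.2% higher among all genes. Ccl24, an eosinophil chemokine, had 216 ± 47.5 TPM with mannose and 1687 ± 166 TPM in controls (SD, n = 3 each), 2.98 lower (adjusted p = 2.23e-04, limma). The macrophage genes Chil3, Arg1 and Il1b were 2.85, 2.62 and 2.41 lower. Pparg, needed for the maturation of alveolar macrophages but also active in epithelium, was the member that rose, with 34.1 ± 6.63 TPM with mannose and 8.25 ± 3.93 TPM in controls (SD, n = 3 each). Scaled to the T cell markers, 8 of the 12 were lower and 1 higher, against 380 lower and 5592 higher among all genes. The list thus had lower calls in libraries in which the Csf2 transcript itself was higher and the myeloid markers were lower.

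Regulators of Csf2 in T cells (15 of 16 tested) gave 4 higher, 3 lower and 8 not passed, with a median of -0.38, shares not far from the 23.2% higher and 11.7% lower of all genes. The AP-1 genes Fos and Jun were 1.40 and 1.43 higher, with Fos at 334 ± 28.0 TPM with mannose and 128 ± 31.9 TPM in controls (SD, n = 3 each), and Il1r1, the interleukin-1 receptor, was 1.50 higher. The NF-κB gene Rel, 1.34 lower, Nfkb1, 0.54 lower, and the NFAT gene Nfatc2, 0.73 lower, went the other way. Scaled to the T cell markers, 4 were higher, 1 (Rel) was lower, and the median turned to 0.27. The median of all genes was then 0.68, with 5592 called higher and 380 lower.

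In whole tumours the question was whether the family differed with mannose in the tissue as a whole. None of the 8 members tested passed, nor did any of 13282 genes (0% called), with 827 genes (6.23%) at an unadjusted p under 0.05 by limma. The groups overlapped for every member, while for 0.128% of genes mannose was lower and for 1.51% higher without overlap. Csf2ra came nearest. It had 70.5, 50.1, 91.4, 42.4 and 44.7 TPM in mannose tumours, against 22.1, 39.8, 54.1, 40.0 and 54.0 TPM in control tumours. The difference was 0.50 ± 0.269 (SE, n = 5 each; 95% interval -0.086 to 1.09; adjusted p = 0.754, limma).

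The other receptors varied several-fold within each tumour group. Csf1r had 93.9, 71.5, 148, 37.6 and 43.5 TPM in mannose tumours, against 17.7, 35.4, 108, 42.7 and 72.0 TPM in control tumours. The groups overlapped over most of their range, and the difference of 0.58 ± 0.476 (SE, n = 5 each) did not pass (adjusted p = 0.785, limma). Csf2rb ranged over 21.0 to 46.4 TPM with mannose and 7.38 to 33.1 TPM in controls, Csf2rb2 over 10.8 to 23.9 TPM with mannose and 3.86 to 17.4 TPM in controls, and Csf3r over 5.25 to 14.4 TPM with mannose and 6.16 to 17.8 TPM in controls. Their differences were 0.42 ± 0.354, 0.42 ± 0.344 and -0.14 ± 0.294 (SE, n = 5 each). Tumour control 1 had the lowest value of Csf1r, Csf2ra, Csf2rb and Csf2rb2 of all 10 tumours and mannose tumour 3 the highest. Without this pair of libraries the differences of Csf1r, Csf2rb and Csf2rb2 were -0.025, -0.11 and -0.059, and that of Csf2ra was 0.13 (0.30 without control 1 alone).

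The ligands were close between the tumour groups. Il34 had 94.5, 73.7, 68.2, 50.1 and 64.1 TPM in mannose tumours, against 65.2, 55.5, 77.4, 57.9 and 90.2 TPM in control tumours, a difference of 0.012 ± 0.179 (SE, n = 5 each; adjusted p = 0.988, limma). Csf1 differed by 0.037 ± 0.258 and Csf2 by 0.21 ± 0.230 (SE, n = 5 each; adjusted p = 0.974 and 0.821, limma). Csf3 reached 1 TPM in 1 tumour and was left out of the fit, and its difference of -0.21 on the log2(TPM + 1) scale was within the spread (exact permutation p = 0.238, two-sided, where 0.00794 is the smallest p that 5 against 5 allows). Macrophage and monocyte markers summed to 2245 to 4561 TPM in mannose tumours and 1662 to 2860 TPM in control tumours, and relative to their mean level Csf1 was 0.43 log2 units lower with mannose (exact permutation p = 0.0238, two-sided; adjusted p = 0.834 over 43). In the 6 pathway lists none of the genes tested passed in tumours, with medians of 0.14 to 0.33 against 0.12 over all genes.

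**Figure D4:**
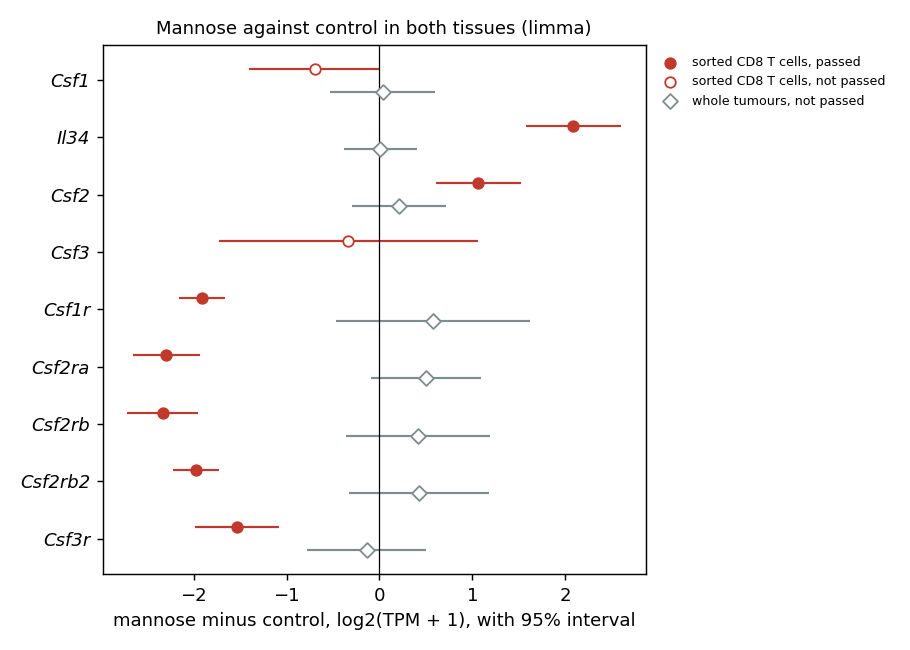
Difference between mannose and control libraries on the log2(TPM + 1) scale for each member, with 95% intervals from limma, in CD8 TILs (circles) and whole tumours (diamonds); filled symbols passed the adjusted threshold and open ones did not. Csf3 was not tested in tumours. The 5 receptor genes lie at -1.53 to -2.34 in CD8 TILs and between -0.14 and 0.58 in tumours.

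Whether the difference between mannose and control libraries was itself different in the 2 tissues was tested as an interaction over all 16 libraries and 15498 genes. Of the 9 members, 5 had a lower difference in CD8 TILs than in tumours and 1 a higher one, where 7.64% and 11.0% of all genes did. Csf2ra gave -2.80 ± 0.395 (SE; adjusted p = 2.48e-04, limma), Csf2rb -2.75 ± 0.511 (adjusted p = 0.00161, limma), Csf1r -2.49 ± 0.674 (adjusted p = 0.0176, limma) and Csf2rb2 -2.40 ± 0.485 (adjusted p = 0.00285, limma). Csf3r, at -1.39 ± 0.435, passed narrowly (adjusted p = 0.0362, limma), and leaving out any 1 of 9 of the 16 libraries lost the call, with adjusted p of 0.0504 to 0.109 (limma). The higher one was Il34, at 2.08 ± 0.301 (adjusted p = 2.96e-04, limma). Csf2, Csf1 and Csf3 did not pass, at 0.85 ± 0.354, -0.74 ± 0.436 and -0.12 ± 0.546, so that the rise of Csf2 in CD8 TILs was not shown to differ from its value in tumours. Of the genes induced through GM-CSF, 9 of 12 had a lower and 1 a higher difference in CD8 TILs than in tumours, and of the 14 macrophage and monocyte markers 12 had a lower one.

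The order of the members by level differed between the groups. In mannose CD8 libraries Csf1 led at 104 ± 50.9 TPM, clear of Csf1r, Csf2, Csf2rb and Il34, which averaged 46.7, 45.0, 40.0 and 39.8 TPM with overlapping ranges, and Csf3r came last at 8.05 ± 1.34 TPM. In control CD8 libraries Csf2rb led at 203 ± 20.2 TPM, with Csf1r at 178 ± 15.3 and Csf1 at 158 ± 14.3 TPM next and overlapping from neighbour to neighbour, and Il34 came last at 8.69 ± 2.33 TPM (SD, n = 3 each). In mannose tumours Csf1r (78.8 ± 44.7 TPM), Il34 (70.1 ± 16.2 TPM) and Csf2ra (59.8 ± 20.9 TPM) led, and in control tumours Il34 (69.3 ± 14.5 TPM), Csf1r (55.1 ± 35.5 TPM) and Csf2ra (42.0 ± 13.2 TPM; SD, n = 5 each). Neighbours in the tumour orders overlapped in range down to Csf3, which lay apart below the rest at 0.456 ± 0.183 TPM with mannose and 0.712 ± 0.406 TPM in controls (SD, n = 5 each).

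Across the 10 whole tumours the levels of 4 receptor genes correlated with the macrophage and monocyte markers. In all, 18 relations, of the 9 members with 2 marker lists, were tested by permutation and adjusted together. Relations with the other marker lists were not tested. Like the macrophage and monocyte level, the T cell and fibroblast levels were lowest in tumour control 1 and highest in mannose tumour 3. Csf2ra correlated with the macrophage and monocyte marker level at r = 0.965 (permutation p = 1e-04, adjusted 0.00180; rho = 0.952, permutation p = 1e-04, adjusted 0.00180) and at 0.886 without the 2 tumours farthest from the median marker level. Csf1r gave r = 0.909 (permutation p = 2.2e-04, adjusted 0.00198; rho = 0.915, permutation p = 5.7e-04, adjusted 0.00513) and 0.834 without those tumours. Csf2rb and Csf2rb2 gave r = 0.918 and 0.919 (permutation p = 0.00145 and 8.7e-04, adjusted 0.00653 and 0.00522; rho = 0.806 and 0.839, adjusted 0.0340 and 0.0254), and 0.745 and 0.769 without those tumours.

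Csf3r gave r = 0.258 with the macrophage markers (permutation p = 0.471, adjusted 0.771; rho = -0.0667, permutation p = 0.864, adjusted 0.915), and -0.800 without the 2 farthest tumours, so its sign rests on them. With the neutrophil markers it gave r = 0.785 (permutation p = 0.00385, adjusted 0.0139; rho = 0.721, permutation p = 0.0231, adjusted 0.0833). Without the 2 farthest tumours this was 0.429, so the relation rests on them. Csf1 gave r = 0.796 with the macrophage markers (permutation p = 0.0118, adjusted 0.0354; rho = 0.673, permutation p = 0.0389, adjusted 0.117), which also rested on 2 tumours (0.424 without them). For Il34, Csf2 and Csf3 no relation passed over the 10 tumours. With the macrophage markers Il34 gave r = 0.291 (permutation p = 0.428, adjusted 0.771; rho = 0.612, permutation p = 0.0661, adjusted 0.170) and 0.739 without the 2 farthest tumours. Csf2 gave r = -0.325 with them (permutation p = 0.370, adjusted 0.739; rho = -0.0424, permutation p = 0.918, adjusted 0.918) and 0.705 without the 2 farthest, so these values too depend on 2 tumours. Csf2 with the neutrophil markers gave r = -0.675 (permutation p = 0.0222, adjusted 0.0572; rho = -0.552, permutation p = 0.105, adjusted 0.236), and -0.662 without the 2 farthest tumours.

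**Figure D5:**
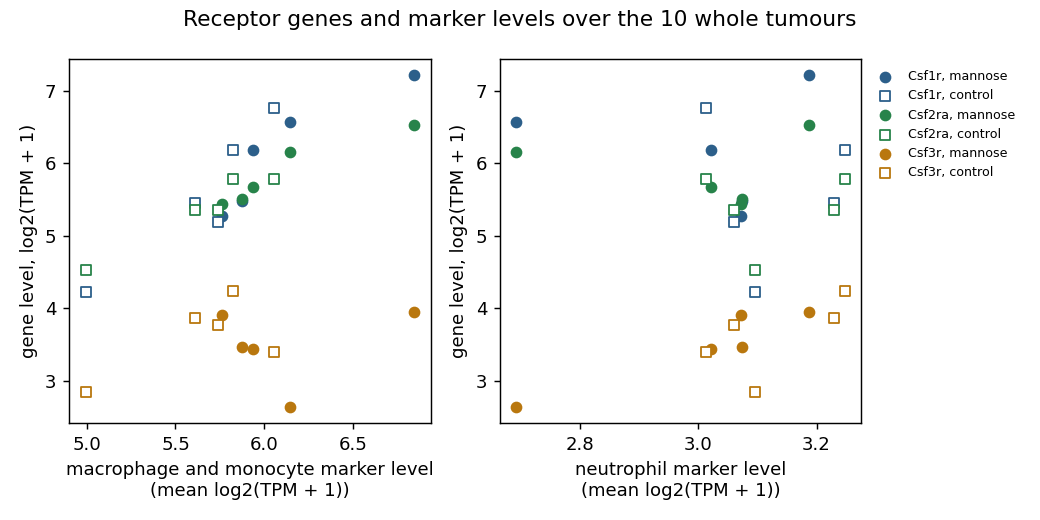
Level of Csf1r, Csf2ra and Csf3r, log2(TPM + 1), against the mean level of the macrophage and monocyte markers (left) and of the neutrophil markers (right) in each of the 10 whole tumours; filled circles are mannose tumours and open squares control tumours. Csf1r and Csf2ra climb with the macrophage markers (r = 0.909 and 0.965), and Csf3r with the neutrophil markers (r = 0.785).

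The genes most like each member across the 10 tumours were taken as the 3 with the highest Pearson r of log2(TPM + 1) among 9525 genes with a mean of at least 5 TPM, as a description. For Csf1r they were Plbd1 (0.993), Adgrg5 (0.992) and Man2b1 (0.992). For Csf2ra they were Lcp1 (0.994), Lcp2 (0.990) and Tgfbi (0.989), of which Lcp1 and Lcp2 are leukocyte genes. Csf2rb and Csf2rb2 were among each other's 3 (0.992), with Wipf1 and Adcy7 (0.993 each) beside Csf2rb and Emilin2 (0.993) and Nckap1l (0.991) beside Csf2rb2. For Csf3r the highest was Bcl6, at 0.883. For the ligands they were Acvrl1, an endothelial receptor, for Csf1 (0.984), Myof for Il34 (0.972) and Gtf2e2 for Csf2 (0.909). The libraries share their tissue and the balance of its cell types.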

How the data were processed

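Messenger RNA of 16 libraries was analysed. The authors deposited 1 table per library with a single column of TPM, the unit being read from the values, which summed to 993815 to 997809 per library. Per the submitters' processing notes, fastp, HISAT, RSEM and build GRCm39 were used, with no versions or order given. Depth is unknown, so no counting error is given. Entries sharing a symbol were summed, and groups were taken from the sample labels.

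Log2(TPM + 1) was compared with limma 3.58.1 (R 4.3.3, variance trend) keeping genes that reached 1 TPM in 3 or more libraries (CD8 TILs, interaction) or 5 or more (tumours), with Benjamini-Hochberg adjustment over all genes and a threshold of 0.05. The interaction covered 52916 shared symbols. Fold changes on this scale understate low genes. Csf3 in tumours, ratios and marker-relative levels had 2-sided exact permutation tests, and correlations 100000 permutations (Python 3.11.15, scipy 1.17.1; figures with matplotlib 3.10.9). The fits were tested on simulated data. Up to 4 genes per list past the threshold in the CD8 fit were named by size of difference, except some that are not reported here; Jak1, Jak2, Ywhaz, Klf4, Pparg, Nfatc2, Nfkb1 and Rel were added after their values were seen. Members and lists were chosen with earlier results of these data known. Sequences are from GENCODE M21 and RefSeq (GRCm38.p6), and chromosomes from GENCODE M21.

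Alternatives were a pseudocount of 0.1, no filter, quantile and median-ratio scaling, array weights, the replicate number as a block, all libraries in 1 fit, libraries left out, like pairs averaged, scaling to T cell markers, and Csf2rb and Csf2rb2 summed.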

Additional observations from a re-analysis of the deposited data

Results flagged for a closer look

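The difference between mannose and control libraries differed between CD8 TILs and whole tumours for 6 members, by limma's test of the interaction on the log2(TPM + 1) scale. The difference in CD8 TILs minus that in tumours was -2.80 for Csf2ra, -2.75 for Csf2rb, -2.49 for Csf1r, -2.40 for Csf2rb2 and -1.39 for Csf3r. For Il34 it was 2.08. Among all genes tested, 7.64% had a lower difference in CD8 TILs than in tumours and 11.0% a higher one. The macrophage and monocyte markers moved with the receptors, with 12 of 14 lower in the same test, and the carcinoma epithelial markers with Il34, with 6 of 7 tested higher and 1 lower. Their part in these 6 results was not tested. No library stood apart from its group of 5 tumours for any member by Dixon's test, and groups of 3 were not examined for this.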

How the results depend on the processing

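The 5 receptor calls and the Il34 call in CD8 TILs passed under every alternative run. With like pairs averaged 1 member (Il34) was called higher in place of 2, and 1683 genes in place of 4980. Same-numbered libraries shared only a number (deviations correlated at 0.0565 to 0.163 in CD8 TILs and -0.511 to 0.280 in tumours, and 3 of 8 mannose libraries matched their own number best). With it as a replicate block, Csf2 also passed the interaction (0.85, adjusted p = 0.0429, limma), giving 2 members called higher in place of 1. No other member's call changed under the block.

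Array weights called 8631 genes and passed Csf1 in CD8 TILs (-0.92, adjusted p = 0.00124, limma) and in the interaction (-0.90, adjusted p = 0.0117, limma, 6323 genes in place of 2896). Leaving out single CD8 libraries gave 2803 (without mannose 2) to 6119 genes. Without CD8 mannose 1 the interaction called 1884 genes, and without tumour mannose 4 the tumours 1. Higher calls made up 66.4% of the CD8 calls (3306 against 1674 lower), 53.7% when quantile-normalized, 51.5% with median-ratio scaling and 93.6% when scaled to T cell markers, which moved the median gene to 0.68. Csf3r lost the interaction without the filter (adjusted p = 0.0763, limma).

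Values that changed sign were all of results that had not passed, and the cause was not tested. Only Csf3 in CD8 TILs without mannose 3 passed once its sign had changed (0.42, adjusted p = 0.0484, limma). Csf3 in CD8 TILs was 0.41 with array weights and 0.29 scaled to T cell markers, and -0.72 to 0.42 on leaving out libraries. Its interaction was 0.055 with pseudocount 0.1, 0.54 with array weights and -0.51 to 0.63 on leaving out libraries. In tumours, quantile normalization gave -0.056 for Csf1 and -0.030 for Il34, and median-ratio scaling -0.084 and -0.11. Without tumour control 1 and mannose 3 together, Csf1 was -0.31, Csf1r -0.025, Il34 -0.0014, Csf2rb -0.11 and Csf2rb2 -0.059. Leaving out single tumours gave -0.18 to 0.20 for Csf1, -0.10 to 0.12 for Il34 and -0.33 to 0.071 for Csf3r. Unknown depth limits what can be said of Csf3 in tumours.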
